A study of Mus musculus with 18 samples.

Results

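The genes that carry glucose into the cell, break it down through glycolysis, hand its carbon to lactate or to the mitochondrion, and store it as glycogen were followed in 3 adipose depots of the mouse at 2 temperatures. The 43 genes were taken from a list given by function and were not selected on their measured values, although earlier results of these data were known. Of these, 39 had a probe set naming that gene alone, among 18193 genes that had one. The probe set table used here named none for Gpi1, Pfkfb1 and Eno1, and they were not analysed here. Gapdh was read only through the control probe sets of the array. The arrays were hybridized with RNA of interscapular brown adipose tissue (BAT), inguinal subcutaneous white adipose tissue (sWAT) and mesenteric white adipose tissue (mWAT). All came from intact female 129Sv mice (Sv129 in the labels) aged 10 wk, caged singly on standard chow and kept at 28 or 6°C for 10 days, with 3 arrays per depot and temperature and 18 in all. None carried a transgene or received a drug, and the group at 28°C served as the warm reference.

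Glucose enters adipocytes through the basal transporter GLUT1 and the insulin-responsive GLUT4 and is trapped by hexokinase as glucose 6-phosphate. Phosphofructokinase commits it to glycolysis, fructose 1,6-bisphosphatase runs the opposite reaction, and glycogen synthase and phosphorylase govern an internal store. At the end of the pathway pyruvate is either reduced to lactate or oxidized by pyruvate dehydrogenase, an enzyme that the pyruvate dehydrogenase kinases switch off. Brown adipose tissue is known for a high uptake of glucose in the cold and for glycogen that is built up and used as thermogenesis starts.

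Levels are log2 of the deposited intensity on the brightest probe set of each gene, in the order of replicates 1, 2 and 3, and differences are given ± SE from a limma fit over all 18 arrays with n = 3 in each group. A member is called higher or lower, upregulated or downregulated, at an adjusted p under 0.01, the threshold of the study's methods, after Benjamini-Hochberg adjustment over 45037 probe sets. Levels were not compared between genes, since probe sets differ in brightness. Whether arrays of different depots came from the same mouse is not given, and p-values measure only the spread between these arrays.

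Depot and temperature were taken from the array titles, with which the listed characteristics disagree. Groups by title accounted for a median of 91.1% of the variance of the 39 members and groups by the characteristics for 48.2%, and 38 of the 39 followed the titles more closely. Some libraries stood apart. Skeletal muscle genes, 25 in number, had a mean log2 intensity of 8.29, 12.25 and 11.59 in warm BAT, 7.30, 9.57 and 7.96 in cold BAT, from 6.25 to 10.64 in sWAT and from 6.21 to 7.08 in mWAT. Replicates 3 of mWAT had T lymphocyte genes at 6.36 and 6.32, against 10.71 to 10.83 in the other mWAT arrays. Brown adipocyte genes were at 11.15 to 12.08 in BAT, went from between 7.99 and 8.52 to between 9.89 and 10.29 in sWAT with cold, and from between 7.28 and 7.74 to between 8.22 and 8.44 in mWAT, and adipocyte genes lay between 12.34 and 13.35 on every array. Pancreatic acinar genes stood at 10.93 in BAT replicate 3 at 6°C, 10.50 in mWAT replicate 1 at 28°C and 14.16 in mWAT replicate 2 at 6°C, against at most 7.53 elsewhere.

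The signal of Gapdh, the enzyme that oxidizes glyceraldehyde 3-phosphate, also reads RNA quality on these arrays. Its 3' control stood above its 5' control by 0.42, 0.39 and 0.55 in warm BAT and by 0.25, 0.29 and 0.28 in cold BAT, so that the groups did not overlap. Warm sWAT stood at 0.61, 0.59 and 0.56 and cold sWAT at 0.39, 0.48 and 0.52, and in mWAT it lay between 0.48 and 0.56 at both temperatures. This sign of RNA quality thus moved with temperature in BAT and in sWAT. The Gapdh 3' control itself read 14.03, 14.07 and 14.11 in BAT at 28°C and 14.20, 14.20 and 14.19 at 6°C. It was 13.87 to 13.98 and 13.97 to 14.07 in sWAT, and 13.90 to 13.99 and 13.83 to 14.05 in mWAT. Gapdh was thus higher in cold BAT on every array, by less in the 3' control than in the 5' control, whose levels were 13.57 to 13.68 at 28°C and 13.91 to 13.95 at 6°C.

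The first question was how the pathway responded to cold in each depot. In BAT 5 of 39 members were upregulated at 6°C, the hexokinase Hk1, the phosphofructokinase Pfkp, both fructose bisphosphatases Fbp1 and Fbp2, and the glycogen synthase Gys2, and 1, the glycogen phosphorylase Pygb, was downregulated. Of all genes 2.8% were higher and 2.53% lower in the same comparison. In sWAT Fbp2 and the pyruvate dehydrogenase kinase Pdk4 were upregulated and none was downregulated, against 0.72% and 0.022% of all genes. In mWAT no member passed in limma, with 7 at an unadjusted p under 0.05, and of all genes 0.0055% were higher and 0% lower. In RNA of a whole depot, fewer cells of a type and less RNA per cell cannot be told apart. The median difference of the members was 0.14 in BAT, 0.23 in sWAT and 0.02 in mWAT, and that of all genes 0.01, -0.0016 and 0.01.

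More members leaned upward than passed. All 3 arrays at 6°C lay above all 3 at 28°C for 22 of 39 members in BAT (19.9% of all genes), 18 in sWAT (13.1%) and 1 in mWAT (4.73%). All lay below for 5 members in BAT (19.9% of all genes), 2 in sWAT (8.66%) and 2 in mWAT (2.8%). The members had bright probe sets, and among the 11380 genes at least as bright as the median probe set 3.44% were higher and 3.37% lower in BAT, and 1.04% and 0.0264% in sWAT. When the Gapdh 3' to 5' difference was added to the fit as a covariate, an alternative chosen after the data were seen, 0 of 39 members passed in BAT and 0 in sWAT. In that fit the genes called in BAT fell from 969 to 17 of 18193, the median SE of the members in BAT went from 0.21 to 0.33, and 30 of 39 members kept their sign. The differences of the members called before were then 1.96 for Gys2, 1.78 for Fbp2, 1.49 for Fbp1, 1.33 for Hk1, 0.81 for Pfkp and -1.05 for Pygb in BAT, and 2.36 for Fbp2 and 1.29 for Pdk4 in sWAT.

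**Figure D1:**
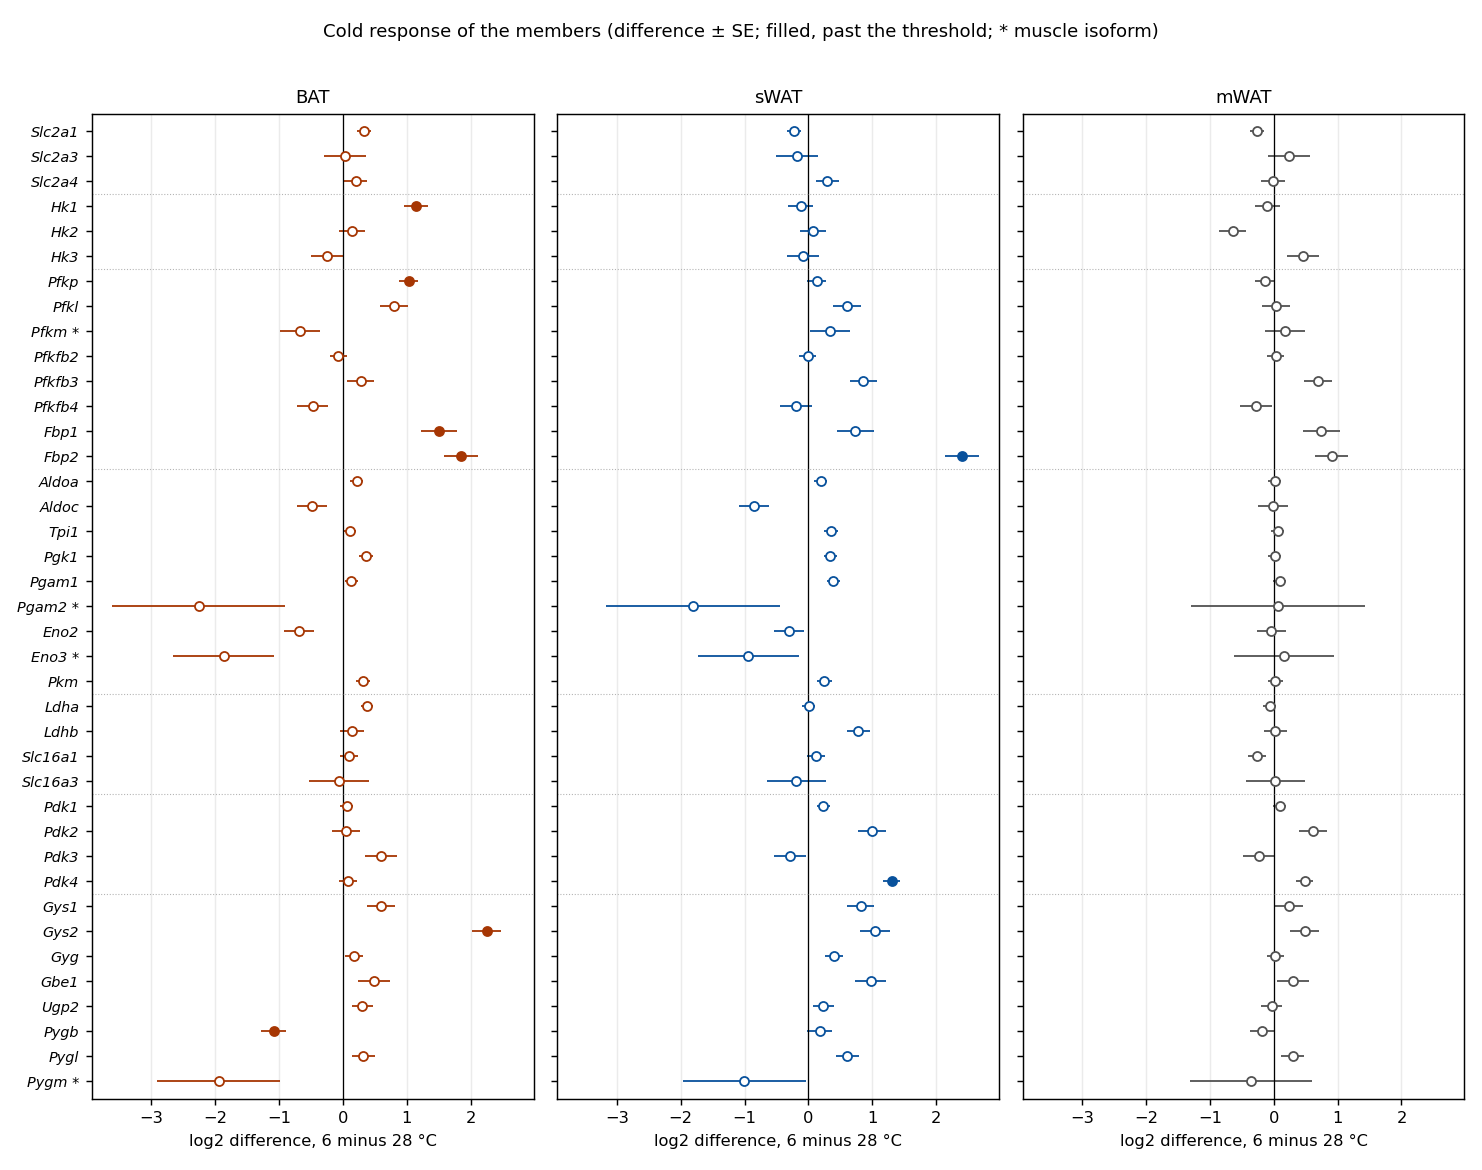
Log2 difference between 6 and 28°C (± SE, n = 3 arrays per group) of each of the 39 members in BAT, sWAT and mWAT, ordered by step of the pathway, with dotted lines between steps, filled points past the threshold and asterisks on muscle isoforms. BAT has 6 filled points and sWAT 2, mWAT has none, and the widest error bars belong to Pgam2, Pygm and Eno3.

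Of the 3 glucose transporters none was called in limma between temperatures, with 1, 0 and 1 at an unadjusted p under 0.05 in BAT, sWAT and mWAT. Slc2a4, which encodes GLUT4, read 13.11, 13.07 and 12.98 in BAT at 28°C and 13.24, 13.17 and 13.35 at 6°C. It read 12.13, 12.55 and 12.85 in warm and 12.80, 12.72 and 12.90 in cold sWAT, and 12.24 to 12.83 across the 6 mWAT arrays. The cold arrays were all higher in BAT, by 0.20 ± 0.18 (adjusted p = 0.557), and overlapped the warm ones in sWAT and mWAT. Slc2a1, which encodes GLUT1, read 10.77, 10.70 and 10.79 in warm BAT and 11.05, 11.08 and 11.14 in cold BAT. In sWAT it read 12.14, 12.05 and 11.94 at 28°C and 11.94, 11.70 and 11.81 at 6°C, and in mWAT 12.14, 12.04 and 12.08 and then 12.02, 11.74 and 11.70. The cold arrays thus lay above the warm ones in BAT (0.34 ± 0.11, adjusted p = 0.0585) and below them in sWAT (-0.23 ± 0.11) and mWAT (-0.27 ± 0.11), and none of these passed. Slc2a3, which encodes the high-affinity transporter GLUT3, differed by 0.03 ± 0.33, -0.18 ± 0.33 and 0.24 ± 0.33 in BAT, sWAT and mWAT. None of 10 further hexose transporter genes was called in limma in the cold, with 2, 1 and 0 at an unadjusted p under 0.05.

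Of the hexokinases, which trap glucose in the cell, Hk1 was upregulated in cold BAT. It read 9.38, 9.46 and 9.90 at 28°C and 10.94, 10.52 and 10.71 at 6°C. The groups did not overlap, and the difference was 1.14 ± 0.19 or 2.21-fold (adjusted p = 0.00153). A dimmer probe set of Hk1 gave 1.16 ± 0.21 (adjusted p = 0.0023). In a fit of the BAT arrays alone the call of Hk1 was lost (adjusted p = 0.0185). Hk1 read 9.67 to 10.11 in warm and 9.74 to 9.84 in cold sWAT, and 9.94 to 10.36 and 9.81 to 10.46 in mWAT, with the temperatures overlapping in both. Hk2, the insulin-regulated hexokinase, read 13.56 to 13.59 and 13.68 to 13.78 in BAT (0.14 ± 0.21), and in mWAT all cold arrays were below the warm ones (-0.64 ± 0.21, adjusted p = 0.914). Hk3 was at 7.33 to 8.95 on the 18 arrays and was not called.

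Control of the fructose 6-phosphate step held 3 of the 5 upregulated members of BAT. Pfkp, the platelet-type phosphofructokinase, read 11.87, 11.80 and 11.88 in warm and 12.91, 12.78 and 12.96 in cold BAT. This was an upregulation of 1.03 ± 0.15 or 2.04-fold (adjusted p = 0.000673). A second probe set of Pfkp gave 1.94 ± 0.28 (adjusted p = 0.000506) and the dimmest 0.43 ± 0.18 (adjusted p = 0.13). In sWAT Pfkp read 11.54 to 12.01 and 11.86 to 11.96, and in mWAT 12.04 to 12.50 and 11.83 to 12.29, so neither separated the temperatures. The liver-type Pfkl was higher on all cold arrays in BAT (12.47 to 12.68 and 13.37 to 13.47, 0.80 ± 0.22, adjusted p = 0.0267) and in sWAT (11.10 to 11.64 and 11.75 to 12.49, 0.60 ± 0.22, adjusted p = 0.239) without passing. With the mean of its 3 probe sets Pfkl passed in BAT. Over all 29 alternative fits its difference in BAT lay between 0.34 and 0.86. Of the enzymes that make or remove the activator fructose 2,6-bisphosphate, Pfkfb3 read 11.52 to 12.35 in warm and 12.58 to 13.04 in cold sWAT (0.86 ± 0.22, adjusted p = 0.0644), and its dimmer probe set gave 1.02 ± 0.18 (adjusted p = 0.0105). Pfkfb2 and Pfkfb4 gave no call in the cold.

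The fructose bisphosphatases, which remove the phosphate that phosphofructokinase adds, were upregulated beside Pfkp. Fbp2, known as the muscle isozyme, read 10.82, 10.57 and 10.37 in warm BAT and 12.51, 12.33 and 12.47 in cold BAT. In sWAT it read 6.74, 7.23 and 7.08 at 28°C and 9.55, 9.29 and 9.43 at 6°C. In mWAT the values were 6.03, 5.97 and 6.36, and then 6.34, 7.77 and 6.96. The temperatures were well apart in BAT and in sWAT and overlapped in mWAT. Fbp2 rose by 1.85 ± 0.26 or 3.62-fold in BAT (adjusted p = 0.000478) and by 2.41 ± 0.26 or 5.31-fold in sWAT (adjusted p = 0.000322), and in mWAT the difference was 0.91 ± 0.26 (adjusted p = 0.783). The warm level in sWAT lay within the range of the array medians (6.97 to 7.20) and that in mWAT below it, so the fold there is not exact. In a fit of the sWAT arrays alone the rise in sWAT did not pass (adjusted p = 0.015).

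Fbp1, the liver isozyme, read 9.68, 10.05 and 10.22 in warm and 11.51, 11.33 and 11.62 in cold BAT, 7.72, 7.35 and 7.55 and then 8.65, 8.21 and 7.96 in sWAT, and 6.21, 6.71 and 6.29 and then 6.40, 7.24 and 7.80 in mWAT. It was upregulated in BAT by 1.50 ± 0.28 or 2.83-fold (adjusted p = 0.0034), and the cold sWAT arrays were all above the warm ones (0.74 ± 0.28, adjusted p = 0.276). The call in BAT was lost without BAT replicate 1 or 2 at 28°C, without BAT replicate 1 or 3 at 6°C, and with the muscle genes as a covariate, where the difference was 1.53 (adjusted p = 0.0172), and over all 29 alternative fits it lay between 1.35 and 1.62. Fbp1 and Fbp2 lie near each other on mouse chromosome 13, on the same strand, and their promoters are shown because both rose in cold BAT. The windows run from 250 bases before to 50 after the annotated start (RefSeq, GRCm38.p6), with ACGTG on either strand in capitals.
Fbp1, chr13:62888233-62888532, minus strand: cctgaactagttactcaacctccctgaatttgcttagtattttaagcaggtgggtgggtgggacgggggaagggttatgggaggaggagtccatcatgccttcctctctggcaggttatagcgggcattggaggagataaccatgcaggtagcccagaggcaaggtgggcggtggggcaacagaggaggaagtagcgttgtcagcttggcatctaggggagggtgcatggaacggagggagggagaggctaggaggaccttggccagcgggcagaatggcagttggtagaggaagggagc
Fbp2, chr13:62858351-62858650, minus strand: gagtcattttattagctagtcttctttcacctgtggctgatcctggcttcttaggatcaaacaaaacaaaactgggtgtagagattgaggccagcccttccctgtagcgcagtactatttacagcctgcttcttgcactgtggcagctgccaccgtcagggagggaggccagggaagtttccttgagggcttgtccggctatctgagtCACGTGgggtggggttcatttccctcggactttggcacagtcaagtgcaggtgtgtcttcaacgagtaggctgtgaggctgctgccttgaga
The Fbp2 window held CACGTG, which contains ACGTG on both strands, and the Fbp1 window held neither.

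**Figure D2:**
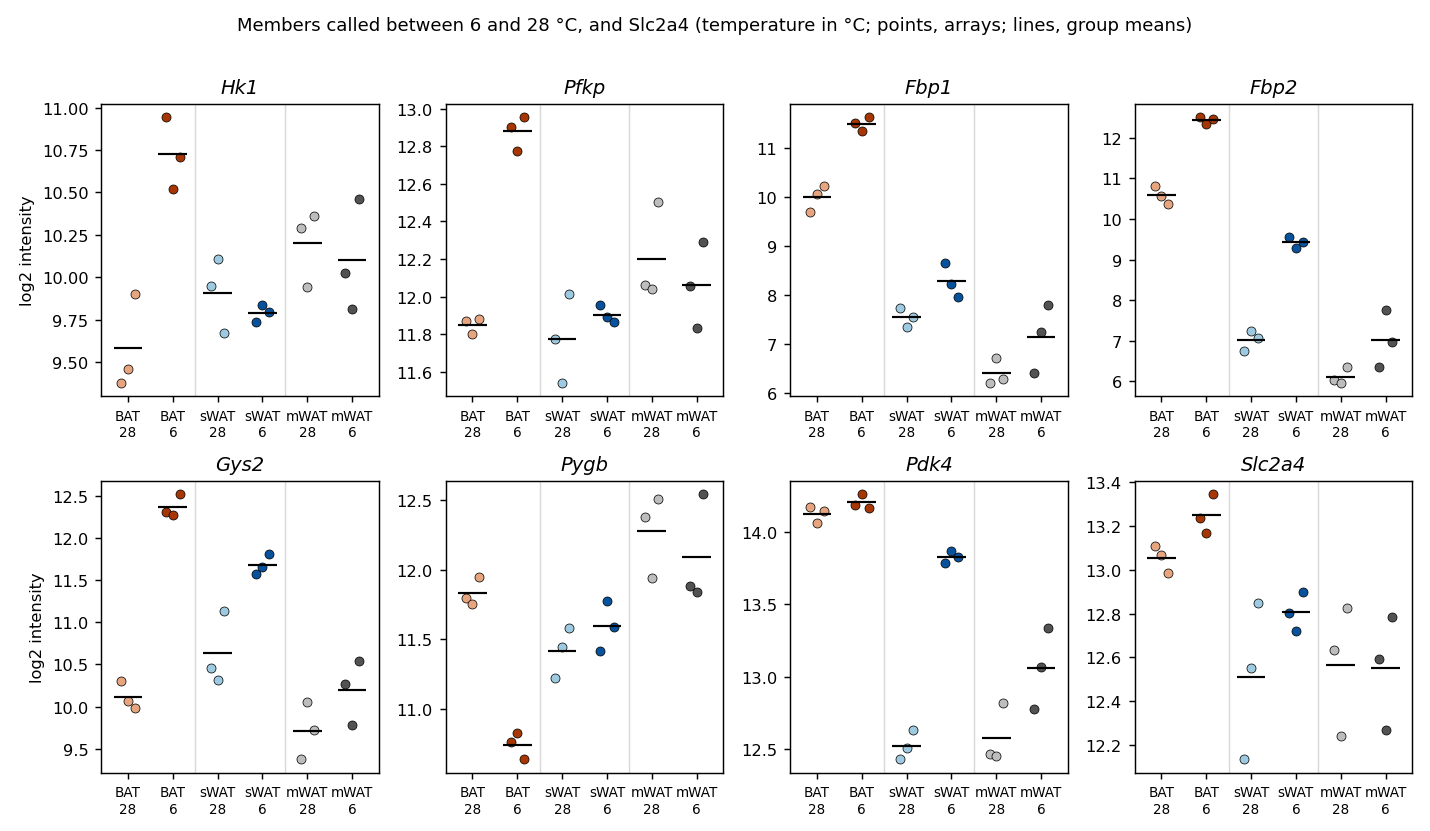
Log2 intensity of the 7 members called between 6 and 28°C in any depot, and of Slc2a4, on each array, by depot and temperature in °C (points, arrays, n = 3 per group, lines, means, with an own scale for each gene). Hk1, Pfkp, Fbp1, Fbp2 and Gys2 rise and Pygb falls in BAT, and Fbp2 and Pdk4 rise in sWAT.

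The ACGTG core is the sequence that hypoxia-inducible factors are known to recognize, and CACGTG is the E box bound by carbohydrate response and circadian factors. Of the 40 members with a promoter in the RefSeq table, 24 (60%) held ACGTG and 8 (20%) held CACGTG, against 21.8% and 8.09% of 27025 genes. A gene counted if any of its starts held the motif, and each CACGTG also counted as ACGTG. These shares were not tested, and no genes of like brightness were compared. Among the members called in the cold, a promoter of Hk1 and that of Pygb also held ACGTG, and are shown because Hk1 rose and Pygb fell in the same arrays.
Hk1, chr10:62340372-62340671, minus strand: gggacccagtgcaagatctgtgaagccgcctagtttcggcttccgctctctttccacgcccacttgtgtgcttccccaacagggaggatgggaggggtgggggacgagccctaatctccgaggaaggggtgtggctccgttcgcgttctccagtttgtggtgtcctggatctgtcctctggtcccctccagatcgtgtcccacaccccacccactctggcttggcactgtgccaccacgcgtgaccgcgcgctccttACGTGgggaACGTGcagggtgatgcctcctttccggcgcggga
Pygb, chr2:150786546-150786845, plus strand: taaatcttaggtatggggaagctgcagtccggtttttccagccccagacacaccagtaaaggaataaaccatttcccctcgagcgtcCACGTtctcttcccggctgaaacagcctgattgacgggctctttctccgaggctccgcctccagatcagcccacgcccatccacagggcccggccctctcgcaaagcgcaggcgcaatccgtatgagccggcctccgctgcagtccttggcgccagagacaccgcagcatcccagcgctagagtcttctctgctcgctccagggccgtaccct
The other Hk1 start in the table and the windows of Pfkp and Pdk4 held neither motif, and the table gave none for Gys2. ACGTG was present in windows of Fbp2 and Hk1, which rose, and of Pygb, which fell, and its part in the response to cold was not tested.

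Lower glycolysis, from aldolase to pyruvate kinase, had 9 measured members and none was called in limma in the cold, with 5, 5 and 0 at an unadjusted p under 0.05 in BAT, sWAT and mWAT. In BAT all cold arrays were above all warm ones for Aldoa, Tpi1, Pgk1, Pgam1 and Pkm, which encode aldolase A, triosephosphate isomerase, phosphoglycerate kinase, phosphoglycerate mutase and pyruvate kinase. These differences were small, from 0.11 ± 0.11 in Tpi1 to 0.36 ± 0.10 in Pgk1. Pgk1 read 13.18, 13.09 and 13.23 at 28°C and 13.53 on each array at 6°C (adjusted p = 0.0341). In sWAT the cold arrays of Pgk1 read 12.96, 12.94 and 12.92 against 12.56, 12.63 and 12.60 (0.34 ± 0.10, adjusted p = 0.134), and in mWAT the difference was 0.01 ± 0.10. Aldoc and Eno2, the aldolase and enolase isozymes known from brain, were below their warm levels on all cold BAT arrays (-0.48 ± 0.23 and -0.69 ± 0.23), without passing.

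The muscle isoforms showed the largest spread. Pgam2, muscle phosphoglycerate mutase, read 8.31, 12.43 and 11.96 in warm and 7.56, 10.05 and 8.31 in cold BAT. Eno3, the muscle enolase, read 9.80, 12.67 and 12.10 and then 9.28, 10.28 and 9.39. Pygm, muscle glycogen phosphorylase, read 7.91, 11.09 and 10.46 and then 7.58, 8.47 and 7.56. In all 3 genes replicate 1 was the lowest warm array and replicate 2 the highest cold array, as in the muscle list, and warm and cold overlapped. The differences were -2.26 ± 1.36, -1.87 ± 0.79 and -1.95 ± 0.96 and none passed. The 6 mWAT arrays, where the muscle list lay between 6.21 and 7.08, held Pgam2 at 6.30 to 6.98. The same mWAT arrays held Eno3 at 10.53 to 10.94 and Pygm at 8.24 to 9.83, above the lowest levels of both genes in BAT. Pfkm, muscle phosphofructokinase, read 11.61, 12.07 and 12.04 in warm and 11.15, 11.37 and 11.21 in cold BAT (-0.67 ± 0.31, adjusted p = 0.194), and so varied much less than Pgam2 over the same arrays. Its lowest warm array was likewise replicate 1 and its highest cold array replicate 2. Its correlation with the muscle list was 0.917 over the 6 BAT arrays and 0.513 within the groups of all 18 arrays, against 0.997 and 0.976 for Pgam2. With the muscle list as a covariate the difference of Pgam2 in BAT was 0.59 with the opposite sign. None of these 4 was called in BAT in the cold. The counts of 5 upregulated and 1 downregulated member were therefore bound to be the same over the other 35 members. The part of muscle in those calls was not tested by leaving the 4 out.

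**Figure D3:**
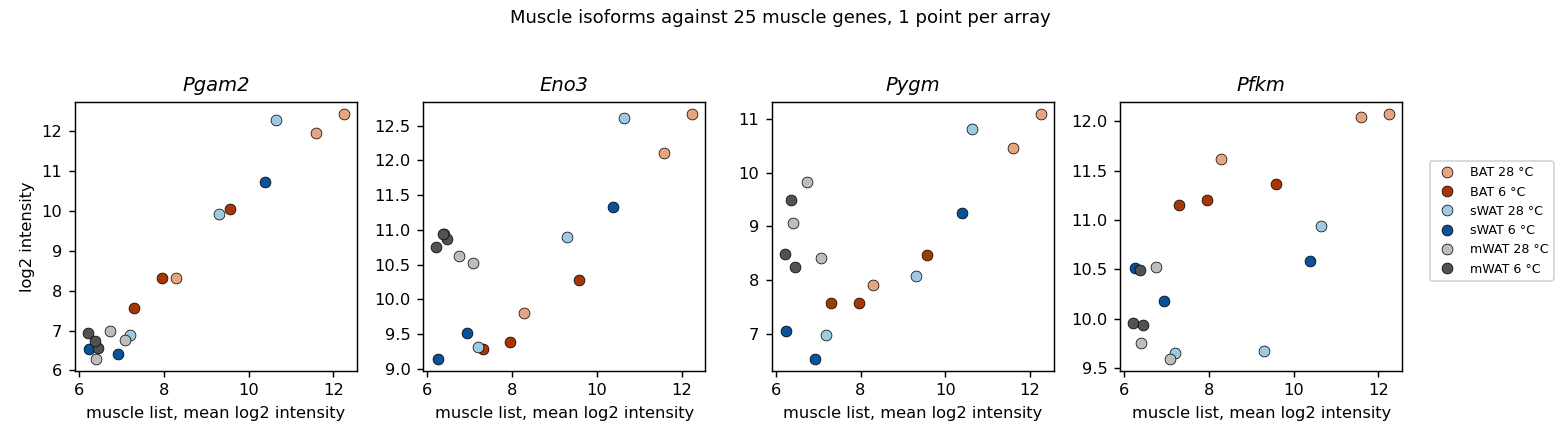
Log2 intensity of the muscle isoforms Pgam2, Eno3, Pygm and Pfkm on each of the 18 arrays against the mean log2 intensity of 25 skeletal muscle genes on the same array. Pgam2 climbs with the muscle genes from 6.30 to 12.43, while BAT at 28°C holds Pfkm at 11.61 or more on all 3 arrays.

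Of the 4 lactate genes none was called in limma in the cold on its brightest probe set, with 1, 1 and 0 at an unadjusted p under 0.05 in BAT, sWAT and mWAT. Ldha, the lactate dehydrogenase subunit known to favour lactate formation, read 13.46, 13.46 and 13.36 in warm and 13.77, 13.76 and 13.88 in cold BAT (0.37 ± 0.10, adjusted p = 0.023), and 13.36, 13.36 and 13.45 and then 13.44, 13.42 and 13.32 in sWAT. Ldhb, the heart-type subunit, read 11.37, 11.55 and 11.70 in warm and 12.45, 12.24 and 12.28 in cold sWAT, where the groups did not overlap (0.78 ± 0.18, adjusted p = 0.044). Its 3 other probe sets gave 1.13 to 1.19 there (adjusted p from 0.0171 to 0.0238). In BAT Ldhb differed by 0.14 ± 0.18. Slc16a1, the lactate transporter MCT1, was within 0.27 of its warm level in each depot on its brightest probe set, while a set close to the array medians rose in BAT by 1.25 ± 0.25 (adjusted p = 0.00439). Slc16a3, the lactate exporter MCT4, was between 5.90 and 8.06 on all arrays.

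Of the pyruvate dehydrogenase kinases, Pdk4 was upregulated in sWAT. It read 12.43, 12.51 and 12.63 at 28°C and 13.79, 13.87 and 13.83 at 6°C, a rise of 1.30 ± 0.14 or 2.47-fold (adjusted p = 0.00025). In BAT it read 14.17, 14.06 and 14.14 and then 14.19, 14.26 and 14.16, and in mWAT 12.46, 12.46 and 12.82 and then 12.78, 13.07 and 13.34. Cold sWAT thus lay near but below the BAT arrays, BAT did not separate by temperature (0.08 ± 0.14, adjusted p = 0.784), and mWAT differed by 0.48 ± 0.14 (adjusted p = 0.765) with overlap. The rise in sWAT did not pass in a fit of the sWAT arrays alone (adjusted p = 0.0332). Pdk2 read 9.76, 10.45 and 10.35 in warm and 11.28, 11.19 and 11.08 in cold sWAT (0.99 ± 0.22, adjusted p = 0.0339), and 12.23 to 12.39 on all BAT arrays. Pdk1 and Pdk3 did not pass in any depot.

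Glycogen genes held the largest rise of all members in BAT. Gys2, the glycogen synthase known as the liver isozyme, read 10.30, 10.07 and 9.99 in warm and 12.31, 12.28 and 12.52 in cold BAT, 2.25 ± 0.23 or 4.76-fold higher (adjusted p = 4.51e-05). In sWAT Gys2 read 10.46, 10.31 and 11.13 and then 11.57, 11.66 and 11.81 (1.04 ± 0.23, adjusted p = 0.0343), and in mWAT 9.37, 10.05 and 9.72 and then 10.26, 9.78 and 10.54 (0.48 ± 0.23, adjusted p = 1). The cold arrays were apart from the warm ones in BAT and sWAT and overlapped them in mWAT. Gys1, the synthase known as the muscle isozyme, was higher on all cold arrays in BAT (10.32 to 10.80 and 11.02 to 11.16, 0.60 ± 0.22, adjusted p = 0.0904) and in sWAT (9.07 to 9.61 and 9.98 to 10.50, 0.82 ± 0.22, adjusted p = 0.083).

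Pygb, the brain-type phosphorylase that releases glucose 1-phosphate from glycogen, was the member that fell. It read 11.79, 11.75 and 11.94 in warm and 10.77, 10.83 and 10.64 in cold BAT, and it fell by 1.09 on the log2 scale, 2.12-fold (SE 0.19, adjusted p = 0.00203). In sWAT it read 11.22 to 11.58 and 11.42 to 11.77, and in mWAT 11.94 to 12.50 and 11.84 to 12.54, with overlap in both. The call was lost without BAT replicate 3 at 28°C, without BAT replicate 3 at 6°C and with the muscle list as a covariate, where the difference was -1.04 (adjusted p = 0.0153), and over all 29 alternative fits it lay between -1.13 and -1.03. Pygl, the liver-type phosphorylase, was on the contrary higher on all cold arrays in BAT (0.32 ± 0.18, adjusted p = 0.294) and sWAT (0.61 ± 0.18, adjusted p = 0.13). Gbe1, the branching enzyme, read 12.17 to 12.35 and 12.65 to 12.85 in BAT and 10.64 to 11.58 and 11.89 to 12.27 in sWAT (0.97 ± 0.25, adjusted p = 0.069). Ugp2, which makes UDP-glucose, did not pass on its brightest probe set in BAT (0.30 ± 0.16, adjusted p = 0.264), while 2 of its 4 dimmer sets did, by 1.11 ± 0.24 (adjusted p = 0.0077) and 0.73 ± 0.15 (adjusted p = 0.00635). Gyg, the primer glycogenin, differed by 0.17 ± 0.14 in BAT and 0.40 ± 0.14 in sWAT.

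The next question was whether the depots differed in their response, tested as the difference between the 6 versus 28°C differences. The response of Pdk4 was lower in BAT than in sWAT with a difference of -1.22 ± 0.20 (adjusted p = 0.00631), the only member called, against 0.467% of all genes. This call was lost in fits without any 1 of the BAT or sWAT arrays. The Pdk4 probe set was on average brighter than 99.3% of probe sets, and whether its signal in BAT was near an upper limit was not tested. No member was called in limma between BAT and mWAT (0.566% of all genes, 11 members at an unadjusted p under 0.05) or between sWAT and mWAT (0% of all genes, 6 members). Closest in BAT against mWAT were Gys2 (1.77 ± 0.33, adjusted p = 0.0114) and Pfkp (1.17 ± 0.22, adjusted p = 0.012), which passed with arrays centred on their medians, with dim probe sets left out, with a variance trend and robust estimates, and with the mean of each gene's probe sets. For Hk1 the difference from sWAT was 1.26 ± 0.27 (adjusted p = 0.03) and for Pygb -1.26 ± 0.27 (adjusted p = 0.029). For Fbp2, upregulated in both BAT and sWAT, the difference was -0.55 ± 0.37 (adjusted p = 0.569).

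At 28°C the depots were compared with each other. Of the 39 members 17 were higher and 5 lower in BAT than in sWAT, against 14.5% and 13% of all genes, and 17 were higher and 4 lower in BAT than in mWAT, against 17.7% and 14.8%. Among the 11380 bright genes these shares were 18.7% and 16% against sWAT, and 22.5% and 17.1% against mWAT. The median difference of the members was 0.54 and 0.56, and that of all genes 0.08 in both. Centring the arrays on their medians moved the median of all genes by 0.14 and 0.13 in these comparisons. The members higher in BAT than in both white depots were Pfkl, Pfkm, Fbp1, Fbp2, Tpi1, Pgk1, Pgam1, Pkm, Ldhb, Pdk1, Pdk2, Pdk4, Gys1, Gbe1 and Pygl, and Slc2a1, Slc2a3, Eno2 and Pdk3 were lower than in both. Against sWAT the calls of Pdk1, Pkm, Tpi1 and Pygl were lost in 18, 11, 9 and 7 of 29 alternative fits, among them several without 1 BAT or sWAT array. With the Gapdh 3' to 5' difference as a covariate 11 members were called between BAT and sWAT, against 22 without it. In sWAT against mWAT 1 member was higher and 4 were lower, against 3.05% and 4.82% of all genes.

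**Figure D4:**
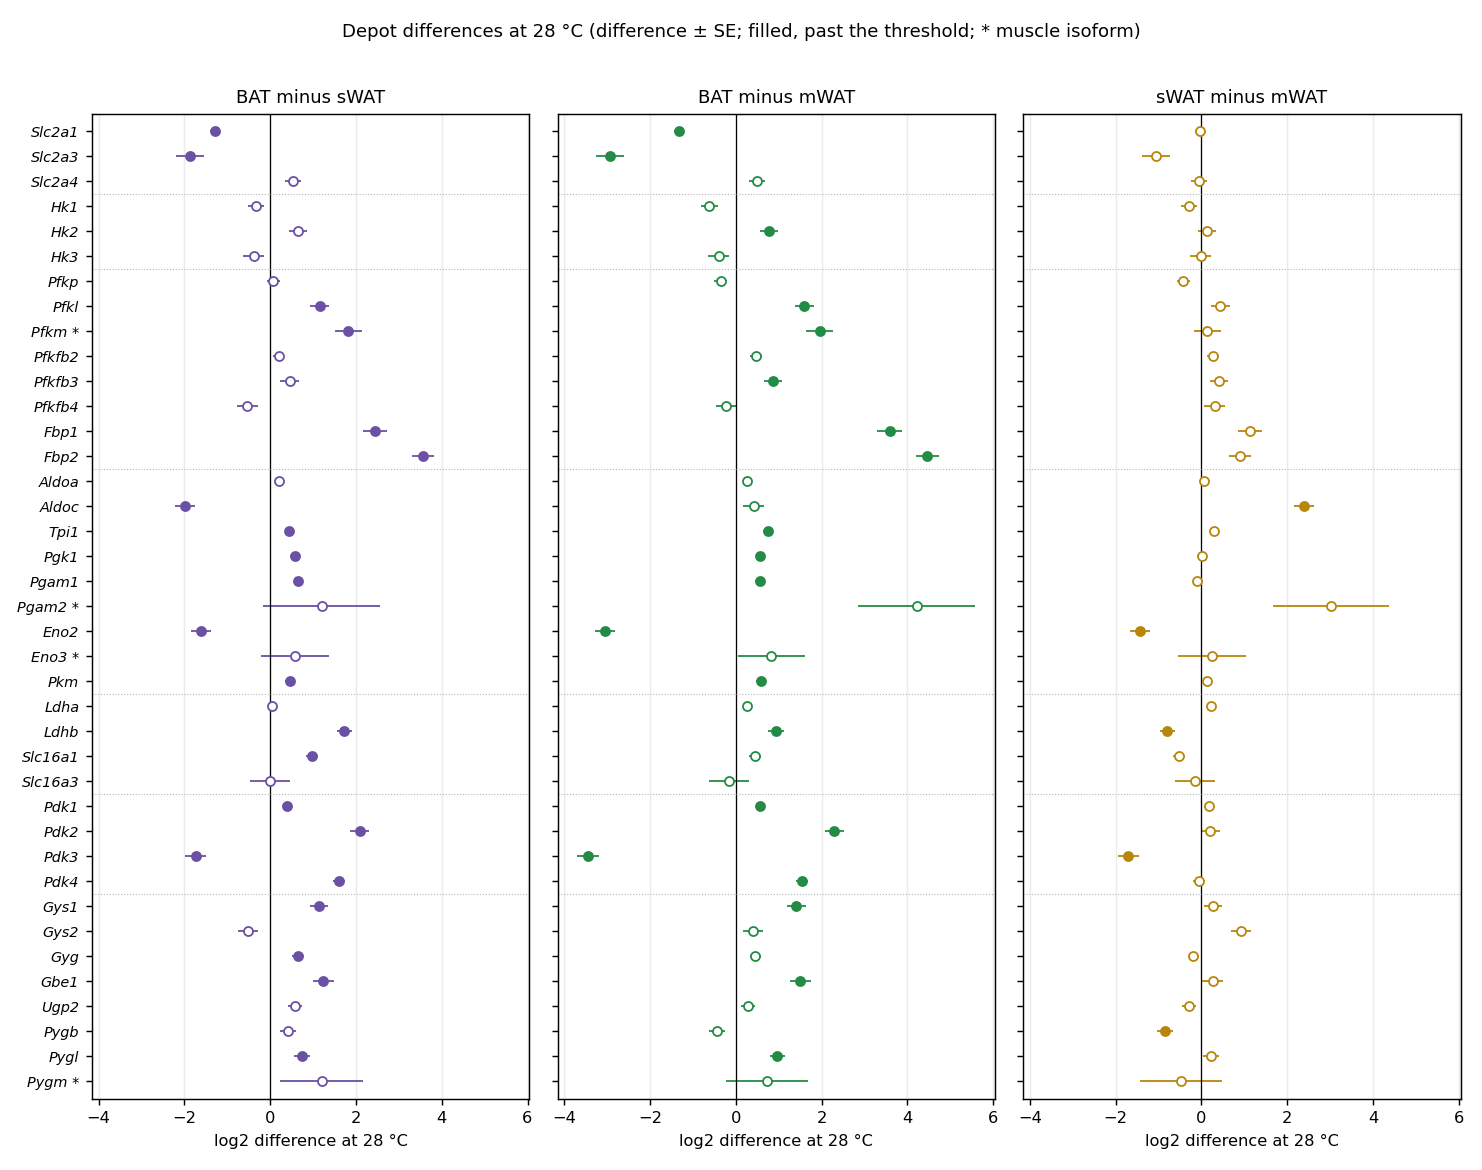
Log2 difference between depots at 28°C (± SE, n = 3 arrays per group) of the 39 members, ordered by step of the pathway, with filled points past the threshold and asterisks on muscle isoforms. Fbp2 and Fbp1 lie farthest toward BAT among the filled points (not exact against mWAT, where both were dim), and Pdk3, Eno2 and Slc2a3 farthest away from it in the comparison with mWAT.

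Among the members called higher in BAT were again both bisphosphatases. Fbp2 was higher in BAT by 3.57 ± 0.26 than in sWAT (adjusted p = 2.85e-07) and by 4.46 ± 0.26 than in mWAT (adjusted p = 3.08e-08), and Fbp1 by 2.45 ± 0.28 (adjusted p = 1.41e-05) and 3.58 ± 0.28 (adjusted p = 2.99e-07). Both were under the array medians in warm mWAT, at 6.12 and 6.40, so those folds are not exact. Pdk2 read 12.34, 12.23 and 12.25 in BAT, 9.76, 10.45 and 10.35 in sWAT and 10.03, 9.49 and 10.42 in mWAT. The BAT arrays were thus clear of both, by 2.09 ± 0.22 (adjusted p = 5.24e-06) and 2.30 ± 0.22 (adjusted p = 1.43e-06). Pfkm read 9.67, 10.94 and 9.65 in sWAT and 9.75, 9.60 and 10.52 in mWAT, below BAT by 1.82 ± 0.31 (adjusted p = 0.000411) and 1.95 ± 0.31 (adjusted p = 0.000175). The muscle genes were higher in 2 of the 3 BAT arrays than on any sWAT array, and with them as a covariate Pfkm differed by 1.59 from sWAT (adjusted p = 0.0012) and by 1.40 from mWAT, where it no longer passed (adjusted p = 0.0137). The lower glycolytic members Tpi1, Pgk1, Pgam1 and Pkm were higher in BAT by 0.44 to 0.74.

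Of the 3 glucose transporters Slc2a1 and Slc2a3 were lower in BAT than in both white depots. Slc2a1 was lower in BAT than in sWAT with a difference of -1.29 ± 0.11 (adjusted p = 8.49e-07) and than in mWAT with a difference of -1.33 ± 0.11 (adjusted p = 3.89e-07), and the highest BAT array of either temperature (11.14) was below every white array (11.70 and up). Slc2a4 was higher on all warm BAT arrays than on the white ones, by 0.54 ± 0.18 (adjusted p = 0.0324) and 0.49 ± 0.18 (adjusted p = 0.048), and did not pass. Slc2a3 read 7.44, 7.74 and 7.94 in BAT, 10.52, 9.08 and 9.13 in sWAT and 10.89, 10.63 and 10.40 in mWAT. It was lower in BAT with a difference of -1.87 ± 0.33 (adjusted p = 0.000442) and -2.93 ± 0.33 (adjusted p = 6.13e-06). Over the 29 alternative fits these differences ran from -2.12 to -0.89 and from -3.17 to -1.58. The call against sWAT was lost in a fit of the compared groups alone and with the Gapdh 3' to 5' difference as a covariate. Lymphocyte and macrophage genes were higher in the white depots, with T lymphocyte genes at 5.52 to 6.19 in BAT and 9.22 to 10.83 in warm sWAT. In mWAT replicates 3 T lymphocyte genes were at 6.36 and 6.32, macrophage genes at 10.29 and 10.51, and Slc2a3 at 10.40 and 10.53. The part of these cells in the level of Slc2a3 was not tested.

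Eno2 and Pdk3 were higher in the white depots. Eno2, neuronal enolase, read 8.44, 8.74 and 8.34 in BAT, 10.48, 9.78 and 10.11 in sWAT and 11.59, 11.16 and 11.95 in mWAT. It was lower in BAT with a difference of -1.62 ± 0.23 (adjusted p = 9.2e-05) and -3.06 ± 0.23 (adjusted p = 2.13e-07) and lower in sWAT than in mWAT with a difference of -1.44 ± 0.23 (adjusted p = 0.000709). Pdk3 followed the same order with 6.43, 6.18 and 6.60, then 8.45, 8.37 and 7.60, then 9.86, 9.50 and 10.17, and its differences were -1.74 ± 0.25 (adjusted p = 9.3e-05), -3.44 ± 0.25 (adjusted p = 1.54e-07) and -1.70 ± 0.25 (adjusted p = 0.000334). The BAT level of Pdk3 was under the array medians, so these folds are not exact. Neuron genes averaged 10.22 to 11.29 in mWAT and 4.72 to 6.27 on all BAT and sWAT arrays, and their part in the mWAT levels of Eno2 and Pdk3 was not tested.

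Aldoc was the 1 member higher in sWAT than in mWAT, by 2.40 ± 0.23 or 5.28-fold (adjusted p = 7.44e-06), and it was also higher there than in BAT (-1.99 ± 0.23 for BAT against sWAT, adjusted p = 1.59e-05). It read 10.10, 10.997 and 10.27 in sWAT, 8.23, 8.39 and 8.78 in BAT and 7.96, 7.78 and 8.42 in mWAT. Mammary epithelial genes averaged 9.87, 11.83 and 10.86 on the same sWAT arrays, in the same order as Aldoc, and 4.51 to 7.57 on the warm BAT and mWAT arrays. Their part in the level of Aldoc was not tested. In cold sWAT Aldoc read 9.79, 9.44 and 9.57 and the mammary genes 9.47, 9.37 and 9.32. Ldhb and Pygb were lower in sWAT than in mWAT with a difference of -0.80 ± 0.18 (adjusted p = 0.00929) and -0.86 ± 0.19 (adjusted p = 0.00805), and both calls were lost in most fits without 1 array. The 3 other probe sets of Ldhb gave -1.07 to -1.14 (adjusted p from 0.00378 to 0.00618). Ldhb was higher in BAT than in sWAT by 1.73 ± 0.18 (adjusted p = 5.22e-06), and Slc16a1 by 0.97 ± 0.14 (adjusted p = 9.56e-05).

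**Figure D5:**
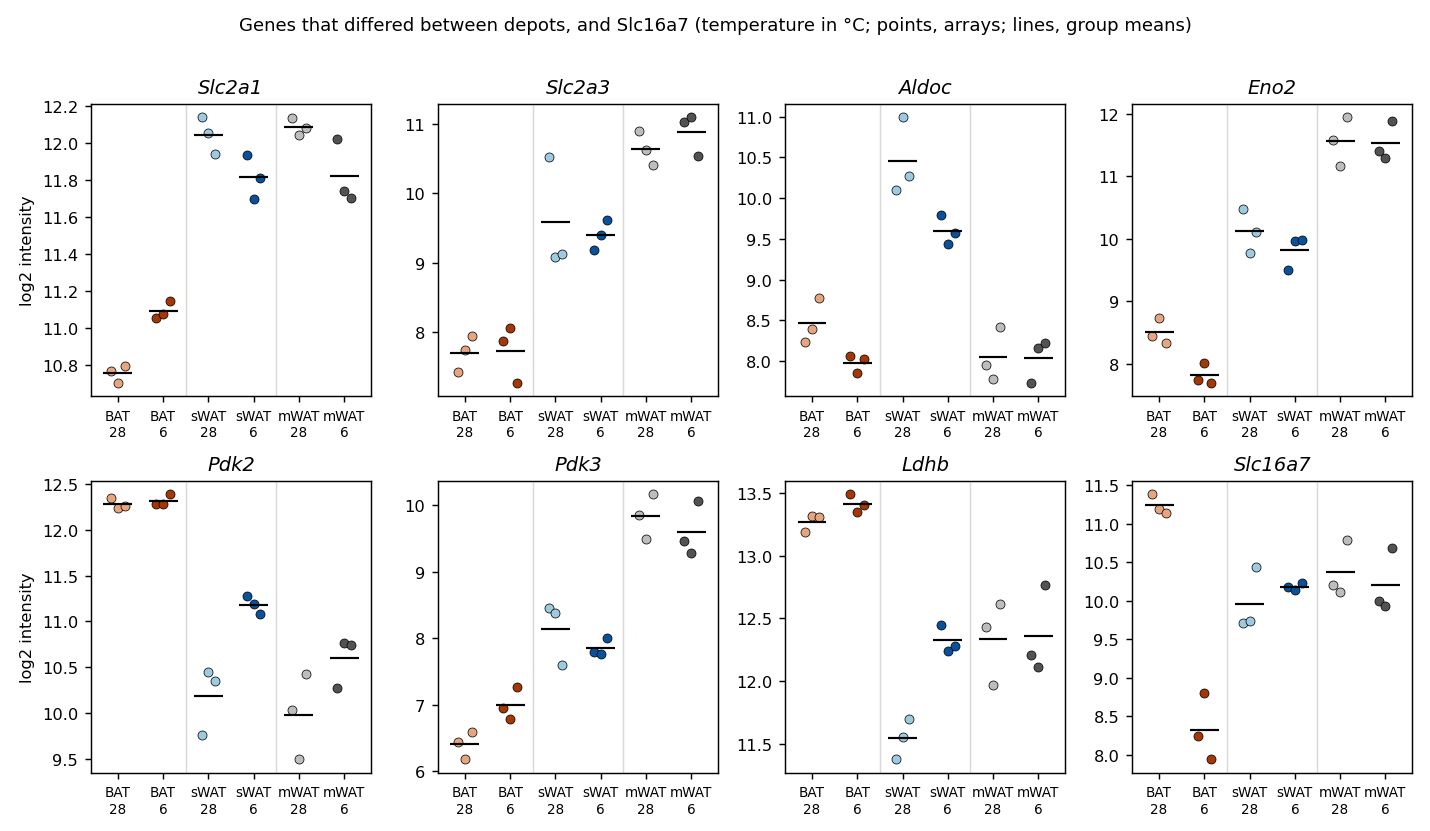
Log2 intensity on each array of 7 members that differed between depots at 28°C and of the pyruvate transporter gene Slc16a7, by depot and temperature in °C (points, arrays, n = 3 per group, lines, means, with an own scale for each gene). Slc2a1, Slc2a3, Eno2 and Pdk3 are lowest in BAT, Pdk2 and Ldhb highest in BAT, Aldoc is highest in sWAT, and Slc16a7 falls in cold BAT.

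Genes around the pathway were read from lists made by function. Of 19 measured genes of pyruvate, lactate and glycerol 3-phosphate handling, 2 were upregulated and 3 downregulated in cold BAT (2.8% and 2.53% of all genes). In cold sWAT 3 were upregulated (0.72% of all genes). Bsg, the chaperone of the lactate transporters, read 12.26, 12.22 and 12.21 in warm and 13.28, 13.17 and 13.34 in cold BAT (1.03 ± 0.13, adjusted p = 0.000244). Got1, of the malate-aspartate shuttle, rose by 1.34 ± 0.25 (adjusted p = 0.00297). Slc16a7, the pyruvate transporter MCT2, read 11.39, 11.19 and 11.13 and then 8.24, 8.80 and 7.94 in BAT (-2.91 ± 0.26, adjusted p = 1.86e-05), while the white depots stayed between 9.71 and 10.79. Ldhd, the D-lactate dehydrogenase, fell in BAT from 11.94 to 11.18 (-0.76 ± 0.17, adjusted p = 0.0092) and rose in sWAT from 9.49 to 10.63 (1.14 ± 0.17, adjusted p = 0.00305). The difference between the BAT and sWAT responses was -3.13 ± 0.37 for Slc16a7 (adjusted p = 0.00154) and -1.89 ± 0.24 for Ldhd (adjusted p = 0.0019). In sWAT the pyruvate dehydrogenase subunit Dld (0.94 ± 0.14, adjusted p = 0.00273) and its phosphatase regulator Pdpr (0.72 ± 0.11, adjusted p = 0.00428) rose with Pdk4. At 28°C 11 of the 19 were higher in BAT than in sWAT (14.5% of all genes) and 9 than in mWAT (17.7%), with none lower (13% and 14.8%), among them Ldhd by 2.45 ± 0.17 and 2.67 ± 0.17. Bsg and the fall of Slc16a7 passed in every fit without 1 array, while Got1 and Gpd1l in BAT were lost without at least 1 BAT array. The fall of Ldhd in BAT was lost in 19 of 29 alternative fits, among them every fit without 1 BAT array. Dld, Pdpr and Ldhd in sWAT were lost in 9, 10 and 7 of 29, among them every fit without 1 sWAT array except warm replicate 3. In a fit of the sWAT arrays alone their adjusted p was 0.104, 0.124 and 0.0835.

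Of 21 further glycogen genes, 2 were higher in cold BAT and none lower (2.8% and 2.53% of all genes). These were Phkb, a subunit of the phosphorylase kinase (0.68 ± 0.13, adjusted p = 0.00432), and Ppp1r3g, a glycogen targeting subunit of protein phosphatase 1 (1.48 ± 0.31, adjusted p = 0.00645). No gene of this list passed in limma in sWAT or mWAT, with 3 and 4 at an unadjusted p under 0.05. Both calls were lost without any 1 of the BAT arrays. Ppp1r3g was under the array medians at both temperatures. At 28°C 6 of the 21 were higher in BAT than in sWAT (14.5% of all genes) and 8 than in mWAT (17.7%), and Pgm2l1 was lower than in mWAT (14.8%). The targeting subunits Ppp1r3c (1.84 ± 0.26 and 1.70 ± 0.26) and Ppp1r3d (1.72 ± 0.31 and 1.75 ± 0.31) were among both. Of 26 insulin signalling and glucose-responsive genes, 2 were higher and 3 lower in cold BAT (2.8% and 2.53% of all genes). Prkaa1, a catalytic subunit of AMPK (1.05 ± 0.16, adjusted p = 0.000639), and the kinase Pdpk1 (0.76 ± 0.14, adjusted p = 0.00264) were higher. The insulin receptor substrate Irs1 (-1.11 ± 0.16, adjusted p = 0.000443), the regulatory subunit Pik3r1 (-0.88 ± 0.19, adjusted p = 0.00662) and Myc (-2.12 ± 0.40, adjusted p = 0.00316) were lower. Irs1 read 12.53, 12.50 and 12.29 and then 11.48, 11.48 and 11.03, so the groups did not overlap. Prkaa1 and Irs1 passed in every fit without 1 array, and Pdpk1, Pik3r1 and Myc were lost without at least 1 BAT array. No gene of that list passed in limma in cold sWAT or mWAT, with 6 and 1 at an unadjusted p under 0.05. None of 15 further glycolytic and gluconeogenic genes passed in the cold in limma, with 3, 5 and 2 at an unadjusted p under 0.05 in BAT, sWAT and mWAT.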

How the data were processed

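RNA of 18 tissue samples was amplified with the NuGEN Ovation system, biotin labelled and hybridized to Affymetrix mouse arrays, whose type is named differently in the study's methods, in its legends and in the platform annotation. The deposited values are intensities on a linear scale, for which the authors report background adjustment, summarization and normalization with the affy package of Bioconductor, by an algorithm not given in the sources used here. The number of arrays limits the precision, and no detection values were used.

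Here log2 intensities of 45037 probe sets, after 64 controls were left out, were fitted in limma 3.58.1 (R 4.3.3) with 1 mean for each of 6 groups, without further normalization, filter or block. Each gene was read on its probe set of highest mean among the 34958 naming 1 gene, while 932 named several and 9211 none. Sets naming several genes were not used, also for Gapdh, although the plan had allowed them. Members, lists and tests were chosen with earlier results of these data known. Values in every array were given for members called in the cold, the up to 4 largest depot differences each way, Slc2a1, Slc2a4, the muscle isoforms and 1 member of each other step, and values of list genes for up to 4 calls a comparison. Other single values and Hk2, Pfkl, Pfkfb3, Ldha, Gbe1 and Ugp2 were named after their values were seen. Motifs were searched on both strands of 300-base promoters. The fit was tested on simulated data. Alternatives changed the threshold, normalization, low probe sets, spread, samples, probe set summary and covariates, and left out each array in turn.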

Additional observations from a re-analysis of the deposited data

Results flagged for a closer look

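A difference between depots in the response to cold, tested in the same limma fit, picked out 3 genes. The response of Pdk4 was lower in BAT than in sWAT (-1.22 on the log2 scale), with the level in BAT already at 14.12 at 28°C. Whether that level was near an upper limit of the signal was not tested. The response of Ldhd was lower in BAT than in sWAT (-1.89) and than in mWAT (-1.41). Its level fell in BAT and rose in sWAT, calls that were lost in 19 and 7 of 29 alternative fits. The response of Slc16a7 was lower in BAT than in sWAT (-3.13) and than in mWAT (-2.75). The Slc16a7 and Ldhd differences from sWAT passed in all 29 alternative fits, and that of Pdk4 was lost in 14 of 29, among them every fit without 1 BAT or sWAT array. The Ldhd difference from mWAT was lost in 19 of 29 and that of Slc16a7 in 2. No group was large enough to look for an outlying array, with 3 arrays in each.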

How the results depend on the processing

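No paired analysis was possible because the labels give the groups no shared replicate numbers or animals. The numbers of members called were 6, 2 and 0 for cold in BAT, sWAT and mWAT, 22, 21 and 5 for BAT against sWAT, BAT against mWAT and sWAT against mWAT at 28°C, and 1, 0 and 0 for the differences of response. At an adjusted p of 0.05 they were 5 in cold sWAT, 9 for sWAT against mWAT, and 3 for the response of BAT against sWAT and 3 against mWAT. In cold BAT Pfkl, Ldha and Pgk1 also passed at 0.05. Smaller relative changes of the counts are not all listed here. With at least a 2-fold change 14, 12 and 3 passed between the depots. Fits of the compared groups alone gave 0 in cold sWAT, 1 for sWAT against mWAT and 2 for the response of BAT against sWAT, and fewer arrays then estimate the spread. Centring on medians, leaving out dim probe sets, a trend with robust estimates, and the mean of probe sets each gave 2 for the response of BAT against mWAT. The muscle list as a covariate gave 3 for sWAT against mWAT and 0 for the response of BAT against sWAT. With it the calls of Fbp1 and Pygb in cold BAT were lost, and the genes called there fell from 969 to 344 of 18193. Without mWAT replicates 3 the responses of BAT gave 2 against sWAT and 1 against mWAT. The Gapdh covariate, added after the data were seen, gave 0 in cold BAT, 0 in cold sWAT, 11 for BAT against sWAT, 3 for sWAT against mWAT and 0 for the response of BAT against sWAT, and the cause was not tested. Leaving out 1 array gave 4 to 6 in cold BAT, 2 to 3 in cold sWAT, 17 to 23, 19 to 25 and 3 to 7 between depots, and 0 to 2 and 0 to 3 for the response of BAT against sWAT and mWAT. No called difference reversed. Of those not called, Pgam2 in cold BAT was 0.59 with the muscle covariate, and Pygm in cold sWAT ran from -1.83 without sWAT replicate 3 at 28°C to 0.094 without sWAT replicate 2 at 28°C.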
